A study of Homo sapiens with 12 samples.

Results

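SET-2 cells with LSD1 carrying an inserted arginine (insR), which the labels call drug-resistant, were compared with SET-2 cells with wild-type LSD1 (WT) while both were under GSK-LSD1. The comparison takes 6 of the 12 libraries of the series, 3 of insR cells and 3 of WT cells, each given 250 nM GSK-LSD1 for 48 h. Genes were taken by a filter on low counts, which 12864 of 63677 listed genes passed. SET-2 is an established human acute myeloid leukemia line, and both genotypes are versions of it. The other 6 libraries, 3 of each genotype in 0.1% (v/v) DMSO for the same 48 h, are used beside the drug comparison to show which differences exist without drug. The sources used here do not give how the insR cells were derived, whether they are 1 clone, or whether replicates were separate cultures. The p-values therefore rest on the scatter of these libraries alone, which could be technical scatter.

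LSD1, encoded by KDM1A, removes methyl groups from lysine 4 of histone H3 and works inside repressor complexes with the scaffold CoREST (RCOR1) and histone deacetylases. In blood cells these complexes are brought to DNA by the repressors GFI1 and GFI1B, which hold the N-terminal SNAG domain that binds LSD1. GSK-LSD1 is an irreversible inhibitor that bonds to the FAD cofactor in the active site and also loosens the hold of LSD1 on GFI1 and GFI1B. Inhibition of LSD1 is known to release myeloid differentiation genes in leukemia cells, and loss of LSD1 in red cell precursors is known to disturb their maturation.

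The insertion that defines the insR cells lies between the residues Leu659 and Asn660 of the 852-residue LSD1 protein. These codons are in exon 15 of the 19 exons of the transcript ENST00000356634 of KDM1A on chromosome 1. The wild-type codons 653 to 666 are shown from the GENCODE 29 transcript, 5′ to 3′, because they mark where the genotypes differ; the capitals mark the codons of Leu659 and Asn660.
KDM1A codons 653 to 666: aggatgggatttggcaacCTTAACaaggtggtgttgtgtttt

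KDM1A itself was lower in insR cells. Under GSK-LSD1 it stood at 219, 218 and 213 CPM (gene counts relative to the TMM-scaled library size) in the WT libraries and at 107, 101 and 110 in the insR libraries. The groups did not overlap, and the log2 difference, insR minus WT, was -1.02 (SE 0.08, edgeR adjusted p = 1.78e-10). The same difference in DMSO was -1.28, and it did not change detectably with drug (interaction 0.26, edgeR adjusted p = 0.11). Counts per gene cannot reveal the inserted codon, and the KDM1A level is no check of the genotype labels.

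The 3 WT libraries under drug held 5326420, 5022916 and 9599482 reads in genes and the 3 insR libraries 6284904, 4837096 and 6615832, so that 3 counts, the limit that a count of 0 allows, were worth 0.296 to 0.620 CPM over the series. Reads outside genes made up 18.4% to 19.5% of uniquely aligned reads in WT and 13.7% to 15.1% in insR libraries under drug, and mitochondrial transcripts 3.97% to 4.54% and 2.70% to 3.58% of reads in genes. Both shares were lower in every insR library than in every WT library under drug, and their part in the results was not tested. Because these are bulk samples, fewer cells of a type and less RNA per cell cannot be told apart.

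Under GSK-LSD1 the genotypes differed widely, in both directions. By edgeR's quasi-likelihood test, 7013 of 12864 genes (54.5%) were called at a Benjamini-Hochberg adjusted p below 0.05. In insR cells 3470 genes (27.0%) were higher and 3543 (27.5%) lower. Of the called genes, 978 were higher by at least 2-fold and 1576 lower by at least 2-fold. In DMSO the same test called 3877 genes (30.1%), 1866 higher (14.5%) and 2011 lower (15.6%). The median absolute log2 fold change of all genes tested was 0.45 under drug and 0.26 in DMSO. The difference between genotypes itself changed with drug at 3228 genes (25.1%), by the interaction term of the same fit.

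The drug and DMSO comparisons share no library, so their calls can be set against each other. They called 2940 genes in common, which is 41.9% of the calls under drug and 75.8% of those in DMSO. Of these, 2720 (92.5%) had the same direction, 1248 higher and 1472 lower in insR cells. Their median absolute log2 fold change was 1.06 under drug and 0.845 in DMSO. A further 220 genes were called in opposite directions, 4073 were called under drug and not in DMSO, and 937 in DMSO and not under drug. Across genes, which are not independent replicates, the log2 fold changes of the 2 comparisons had a Pearson r of 0.748 and a Spearman rho of 0.593.

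**Figure D1:**
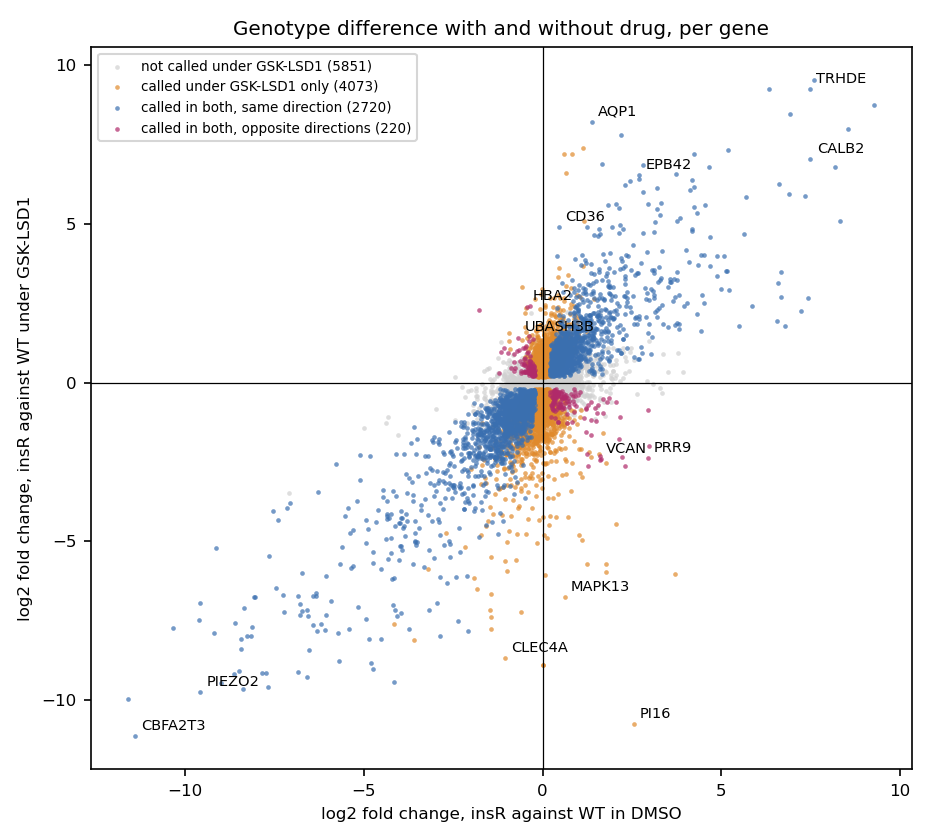
Log2 fold change of insR against WT cells per gene, under GSK-LSD1 (vertical axis) and in DMSO (horizontal axis), for the 12864 genes tested. Most genes called in both (2720) lie in the quadrants where the signs are the same, while 220 lie in the quadrants of opposite sign. PI16, CLEC4A and MAPK13 sit far below 0 on the vertical axis with no call in DMSO.

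The genes furthest below WT under drug were silent or nearly silent in insR cells with or without drug. CBFA2T3, a corepressor of the ETO family that works with GATA1 and TAL1, stood at 43.5, 46.1 and 41.7 CPM in the WT libraries under drug and had 0 reads in all 6 insR libraries. Its bound against 3 counts over the group is at least 252-fold lower under drug (edgeR adjusted p = 7.27e-15). PIEZO2, a mechanically gated ion channel, stood at 122, 112 and 115 CPM in WT cells under drug against 2 reads over the 3 insR libraries. That is a ratio of 1016 with a 95% exact counting interval of 281 to 8393. DLK1, a Notch-related surface protein of immature cells, stood at 53.7, 60.5 and 70.5 CPM in WT cells against 1 read over the insR libraries under drug. Leaving out the insR library with that read, replicate 1, moved the fitted log2 fold change of DLK1 from -9.66 to -11.66.

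The other 9 of the 12 largest negative differences had 0 reads in insR cells under drug. The zinc finger gene ZNF503 was at 11.5, 15.4 and 17.2 CPM in WT cells under drug and at 0 reads in insR cells, a bound of at least 88.9-fold. TWIST1, a basic helix-loop-helix factor of mesoderm, was at least 70.9-fold lower, with 12.9, 10.4 and 12.7 CPM in WT cells and 0 reads in insR cells under drug. EBF3, TBX3, IRX3 and ZNF608 were likewise at 0 reads in insR cells under drug, with bounds of at least 65.4-, 62.0-, 59.4- and 65.7-fold. DPEP3, a membrane dipeptidase, was at least 78.3-fold lower and CABLES1, a cyclin-dependent kinase binding protein, at least 57.4-fold lower. Of these 12 genes, 11 were also called lower in DMSO; PI16 was not, and is described below with the genes called under drug alone. Among all genes called lower under drug, 57 had 0 reads in the insR drug libraries, and 33 of these had 0 reads in the insR DMSO libraries as well.

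The genes furthest above WT under drug fell into those nearly absent in WT cells in both conditions and those low in WT cells under drug. MARCHF1, a ubiquitin ligase that acts on MHC class II, stood at 12.4, 13.3 and 17.2 CPM in insR cells under drug and had 0 reads in the 3 WT drug libraries. It was at least 97.6-fold higher under drug, and also higher in DMSO (log2 7.61, edgeR adjusted p = 4.4e-11). TRHDE, which degrades thyrotropin-releasing hormone, was at 11.8, 12 and 11.1 CPM in insR cells against 0 reads in WT cells, at least 78.6-fold higher. CALB2, the calcium buffer calretinin, was at 145, 133 and 138 CPM in insR cells and at 0.567, 2.11 and 0.713 in WT cells under drug. Its log2 fold change was 7.04 under drug and 7.49 in DMSO, with no detectable change between them (interaction -0.46, edgeR adjusted p = 0.65). Leaving out WT replicate 2 gave 7.67 for CALB2 under drug. CDH11, a cadherin of mesenchymal cells, stood at 69.0, 80.7 and 77.7 CPM in insR cells and at 1.51, 0.960 and 1.32 in WT cells under drug, log2 5.87 against 5.70 in DMSO.

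Another 4 of the 12 are known from red cells, and there the gap between genotypes was wider with drug. AQP1, the water channel of red cells, stood at 44.5, 53.1 and 52.8 CPM in insR cells under drug and at 0, 0.384 and 0.102 in WT cells under drug, which is 3 reads in all. The ratio was 338 (95% exact counting interval 115 to 1643), while in DMSO the log2 fold change was 1.38. EPB42, a protein of the red cell skeleton, was at 68.2, 57.0 and 56.2 CPM in insR cells and at 0.378, 0.384 and 0.916 in WT cells under drug. AHSP, the chaperone of free alpha globin, was at 17.9, 18.7 and 16.1 CPM in insR cells and had 2 reads over the WT drug libraries, a ratio of 177 (95% interval 48.6 to 1470). CA2, a carbonic anhydrase, was at 24.2, 30.5 and 22.3 CPM in insR cells against 0.945, 0.384 and 0.305 in WT cells. All insR libraries lay above all WT libraries under drug in these 4 genes, but this was a condition of their choice and is no further result. The interaction was called in each of the 4, with log2 values of 6.85, 3.83, 2.97 and 3.57. The interaction of AHSP was not called without WT GSK-LSD1 replicate 3 (log2 2.14, edgeR adjusted p = 0.0623), and its drug difference of 7.21 ranged from 6.38 without that library to 9.86 without replicate 1. Without WT GSK-LSD1 replicate 3 the drug difference of EPB42 was 7.24 in place of 6.53, and without replicate 2 that of AQP1 was 9.20 in place of 8.23.

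The other 4 of the 12 largest positive differences were also low in WT cells under drug. CR2, the complement receptor of B cells, was at 18.2, 19.7 and 21.4 CPM in insR cells under drug and at 0.189, 0 and 0.407 in WT cells. PAPPA, a metalloproteinase that frees insulin-like growth factor, was at 18.4, 17.4 and 15.5 CPM against 0.189, 0 and 0.407. IL2RA, the alpha chain of the interleukin 2 receptor, was at 9.18, 14.7 and 11.3 CPM against 3 reads over the WT drug libraries, a ratio of 77.9 (95% interval 26.3 to 381). ID4, an inhibitor of helix-loop-helix factors, was at 70.9, 71.6 and 74.6 CPM in insR cells and 1.70, 2.50 and 0.713 in WT cells. All 12 of the genes with the largest positive difference were also called higher in DMSO, and 8 of the 12 had a called interaction. Without WT GSK-LSD1 replicate 3 the drug difference was 7.42 for CR2, in place of 6.23, and 7.21 for PAPPA, in place of 6.02.

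**Figure D2:**
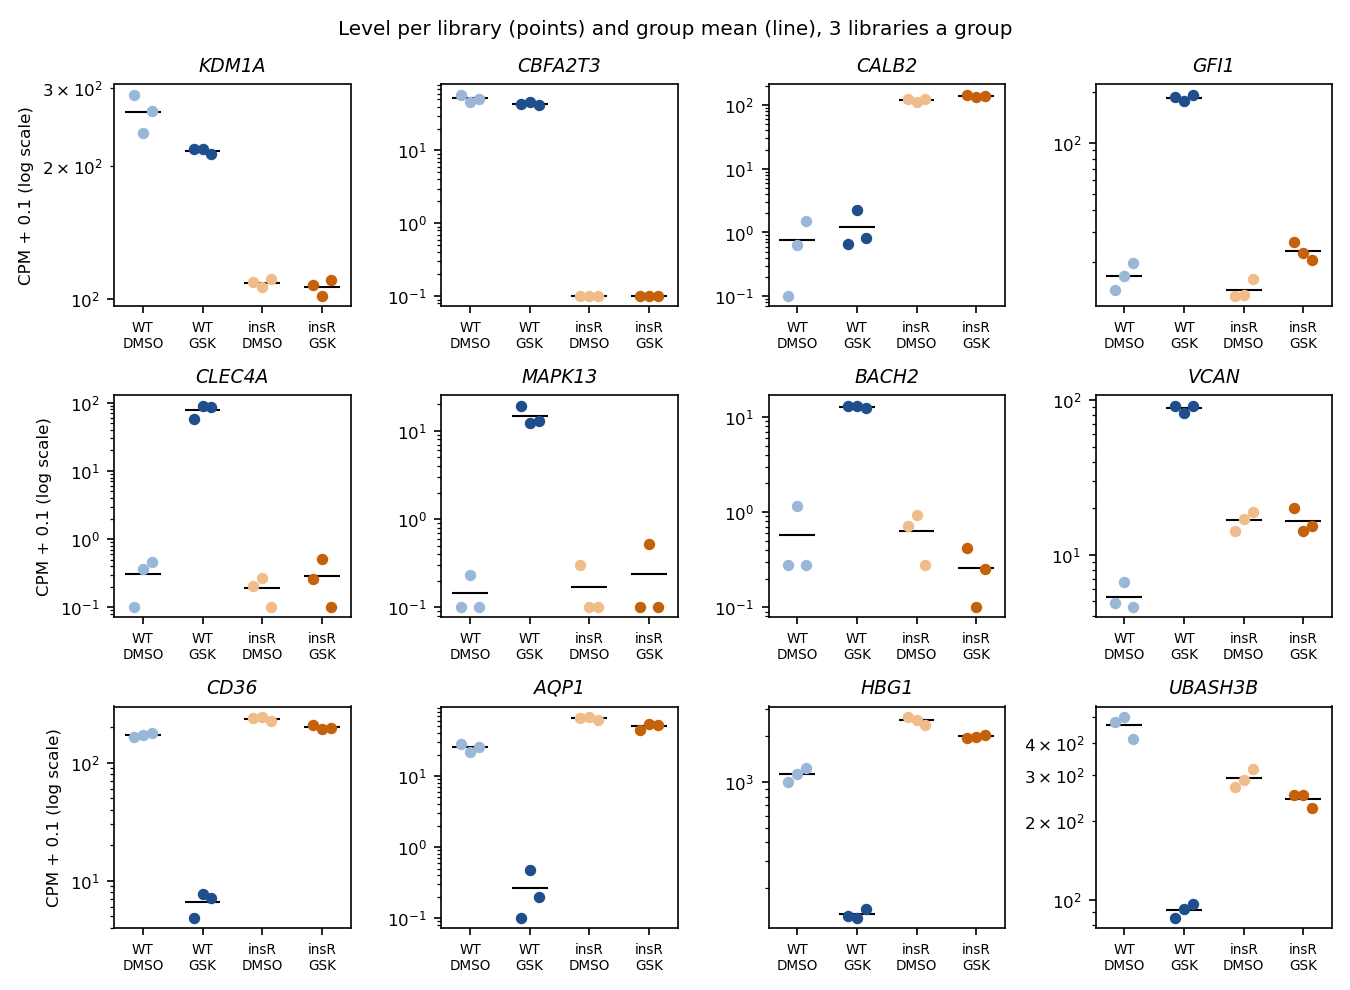
Level of 12 genes in each library (points; CPM plus 0.1 on a log axis) with the group mean (line), 3 libraries in each of WT DMSO, WT GSK-LSD1, insR DMSO and insR GSK-LSD1. CBFA2T3 and CALB2 separate by genotype in both conditions, while for GFI1, CLEC4A, MAPK13, BACH2 and CD36 mainly the WT GSK-LSD1 group stands away from the other groups. AQP1 is also lowest in the WT GSK-LSD1 group, but it is higher in insR cells in DMSO as well.

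The rule used for naming (called under drug, protein-coding, at least 10 CPM in the higher group, no overlap between libraries) was met by 5105 of 12864 genes. Of these 5105, 1578 were not called in DMSO and had a called interaction, 948 higher and 630 lower in insR cells. CLEC4A, a lectin receptor of myeloid cells with an inhibitory motif, was at 57.5, 90.8 and 87.2 CPM in the WT drug libraries and had 3 reads over the insR drug libraries. All other groups were near 0 (0.208 CPM in WT DMSO and 0.0889 in insR DMSO), and the ratio under drug was 468 (95% exact counting interval 160 to 2274). JAML, an adhesion molecule of leukocytes, was at 45.4, 45.1 and 46.1 CPM in WT cells under drug and at 0.483, 0 and 0.310 in insR cells (log2 -7.23, SE 0.33, edgeR adjusted p = 6.75e-15). PI16, a peptidase inhibitor, was at 35.7, 34.2 and 30.3 CPM in WT cells under drug and had 0 reads in the insR drug libraries and in the WT DMSO libraries, which makes it at least 191-fold lower in insR cells under drug. The WT drug libraries stood alone for each of these 3 genes.

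MAPK13, a p38 kinase, BACH2, a repressor of lymphoid cells, and TFPI2, a protease inhibitor, had the same shape. In the WT drug libraries MAPK13 was at 19.3, 12.3 and 12.7 CPM, and it had 2 reads over the insR drug libraries, a ratio of 125 (95% interval 34.4 to 1039). BACH2 was at 12.9, 13.1 and 12.3 CPM in WT cells under drug against 3 reads in insR cells, a ratio of 73.7 (24.9 to 360). TFPI2 was at 17.0, 23.0 and 15.9 CPM against 0.322, 0 and 0.465 (log2 -5.93). The low groups hold few reads, and several interaction calls rested on 1 library. Without insR DMSO replicate 1 the edgeR adjusted p of the interaction was 0.967 for MAPK13, 0.326 for TFPI2 and 0.101 for CLEC4A, without replicate 2 it was 0.104 for CLEC4A, and without replicate 3 it was 0.9998 for PI16. Without insR GSK-LSD1 replicate 1 the drug difference was -7.87 for JAML and -6.89 (in place of -6.06) for BACH2. Without replicate 2 it was -9.65 (in place of -8.69) for CLEC4A and -9.61 (in place of -6.78) for MAPK13, and without replicate 3 it was -8.08, -6.19 and -6.53 for CLEC4A, MAPK13 and TFPI2.

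The genes higher in insR cells under drug alone had smaller differences and were expressed in every group. FST, the activin inhibitor follistatin, was at 43.0, 40.4 and 32.1 CPM in insR cells and at 6.05, 6.72 and 5.70 in WT cells under drug (log2 2.65, SE 0.17, edgeR adjusted p = 3.54e-12). In DMSO it was at 39.2 ± 4.97 CPM in the insR libraries and 31.1 ± 4.81 in WT cells (SD, n = 3). RAB6B and RAB3IL1, genes of vesicle transport, had log2 fold changes of 2.66 and 2.68 under drug. PRF1, the pore protein perforin, was at 16.8, 15.3 and 16.1 CPM in insR cells against 4.35, 2.69 and 2.55 in WT cells. CHAC2, which degrades glutathione, was at 11.4 ± 0.958 CPM against 2.30 ± 1.08 (SD, n = 3). MGAT3, a glycosyltransferase, was at 56.6, 67.2 and 75.7 CPM against 9.45, 19.8 and 12.2, but its interaction (edgeR adjusted p = 0.0429) was lost whenever a library other than WT DMSO replicate 3 or WT GSK-LSD1 replicate 2 was left out, at an adjusted p of 0.0502 to 0.105.

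Among the 220 genes called in opposite directions, 122 were lower in insR cells under drug and higher in DMSO, and 98 the reverse. PRR9, a gene of the epidermal differentiation complex, was at 66.9, 62.4 and 64.5 CPM in WT cells under drug and 14.5, 10.8 and 11.5 in insR cells. In DMSO it was at 0.872 ± 0.193 CPM in the WT libraries and 6.63 ± 0.724 in insR cells (SD, n = 3), so the order of the genotypes turned. VCAN, the matrix proteoglycan versican, was at 91.9, 82.4 and 92.0 CPM in WT cells and 20.0, 14.1 and 15.2 in insR cells under drug (log2 -2.43), and differed by 1.61 in DMSO. CAMSAP2, which binds microtubule minus ends, was lower by 2.64 on the log2 scale under drug and higher by 1.29 in DMSO. MDFIC, an inhibitor of MyoD family factors, differed by -2.42 and 1.63.

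The reverse pattern was seen in UBASH3B, a phosphatase that damps receptor signals, which was at 252, 253 and 225 CPM in insR cells and 84.9, 91.8 and 96.2 in WT cells under drug (log2 1.42). In DMSO it was at 482, 503 and 414 CPM in WT cells and 271, 288 and 316 in insR cells (log2 -0.68). HBA2 followed it, with 20.9, 16.8 and 19.7 CPM in insR cells against 3.59, 3.84 and 3.56 in WT cells under drug and a log2 fold change of -0.44 in DMSO. HBA1 and HBA2 are near-identical copies, so the split of reads between them is uncertain. SLC6A19, an amino acid transporter, and TACC2, a centrosome protein, differed by 2.41 and 1.46 under drug. Their DMSO differences of -0.35 and -0.39 (edgeR adjusted p = 0.037 and 0.029) depend on single libraries. Leaving out any DMSO library ended the call of TACC2 (adjusted p from edgeR of 0.0526 to 0.0795), and leaving out any but WT DMSO replicate 2 ended that of SLC6A19 (0.0560 to 0.128).

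Of the 24 genes listed as the LSD1 complex and its recruiters, 23 could be tested, of which 4 were higher and 9 lower in insR cells under drug. The median of the list was -0.18, beside -0.01 over all genes tested. Counts for this and the other lists stand against the 27.0% higher and 27.5% lower among all genes tested. GFI1, the repressor through which LSD1 acts in myeloid cells, had the most negative difference of the list, with 185, 175 and 192 CPM in the WT drug libraries and 25.9, 22.4 and 20.4 in the insR drug libraries (log2 -3.00, SE 0.12, edgeR adjusted p = 5.06e-16). In DMSO GFI1 was at 16.4 ± 2.98 CPM in the WT libraries and 13.5 ± 1.83 in insR cells (SD, n = 3) and was not called. Its relative GFI1B was at 261, 268 and 237 CPM in the WT libraries and 148, 147 and 166 in insR cells under drug (log2 -0.73), and slightly higher in insR cells in DMSO (log2 0.26, adjusted p = 0.02). The scaffold RCOR1 was higher in insR cells, at 431, 379 and 392 CPM against 247, 204 and 209 (log2 0.87), and by a like 0.70 in DMSO.

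Other members moved in both directions. MTA3, a subunit of the NuRD complex, was lower by 1.68 on the log2 scale under drug with 0.11 in DMSO, while MTA1 of the same family was higher by 1.13. SNAI1, a SNAG-domain repressor, was at 8.16 ± 1.56 CPM in the insR libraries and 1.23 ± 0.464 in WT cells under drug (SD, n = 3). ZMYM2, a zinc finger partner of CoREST, was lower by 1.22 under drug and by 1.09 in DMSO. PHF21A, which reads unmethylated lysine 4 of histone H3, and ZNF217 were lower by 0.87 and 1.17, and TAL1 was higher by 0.61. RCOR3 was lower by 0.34, a call that was lost without WT GSK-LSD1 replicate 2 (edgeR adjusted p = 0.0542). The core deacetylases HDAC1 and HDAC2 were not called, at log2 values of 0.04 (SE 0.09) and -0.18 (SE 0.08). By edgeR, HDAC2 was called lower with upper-quartile scaling (adjusted p = 0.0196). It was also called lower without WT GSK-LSD1 replicate 2 (0.0279) or without insR GSK-LSD1 replicate 3 (0.0286).

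Haematopoietic transcription factors were called in both directions, with 11 higher and 20 lower in insR cells under drug among 34 tested (median -0.51, and 0.10 in DMSO). That is 32.4% higher, near the 27.0% of all genes, and 58.8% lower, against 27.5%. Factors known from red cells were called on both sides. KLF1 stood at 501, 482 and 547 CPM in the insR libraries and 254, 243 and 255 in WT cells under drug (log2 1.02, SE 0.08, edgeR adjusted p = 8.24e-11). GATA1 was at 75.1, 74.7 and 74.3 CPM against 52.9, 39.9 and 44.6 (log2 0.71). Their partners LMO2, LDB1 and TAL1 were higher by 1.78, 1.34 and 0.61, and NFE2 by 0.50. KLF1 and GATA1 were not called in DMSO, at 0.14 and 0.08. ZFPM1, the cofactor of GATA1, was lower (log2 -0.49, edgeR adjusted p = 0.00963), as were LYL1, a relative of TAL1, by 0.44, and GFI1B and CBFA2T3, whose values are given above.

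Other lower factors include ones known from stem cells, megakaryocytes and white cells. RUNX1 was at 329, 341 and 333 CPM in the WT libraries and 143, 144 and 145 in insR cells under drug (log2 -1.22), with 135 ± 3.90 and 146 ± 8.70 in DMSO (SD, n = 3). FLI1 and ERG were lower by 1.20 and 1.18. BCL11A, a repressor of fetal globin, was lower by 1.57 under drug and by 0.84 in DMSO. HOXA9, HOXA10, MEIS1, IKZF1 and RUNX3 were lower under drug, and each was also called lower in DMSO, for HOXA9 by 1.46 and 1.37. CEBPA, the master factor of granulocytes, was at 2.84, 2.50 and 2.14 CPM in WT cells and had 2 reads over the insR drug libraries, a ratio of 21.1 (95% interval 5.53 to 179). CEBPB, CEBPD and CEBPE were higher in insR cells, by 0.83, 1.0 and 2.25. GATA2, MYB and SPI1 were not called, at -0.03 (SE 0.15), 0.12 (SE 0.08) and -0.23 (SE 0.14).

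Genes of the red cell were higher in insR than in WT cells under drug across 3 lists. All 10 tested of 11 globins and their chaperone were higher, with a median log2 fold change of 3.44, against 7 higher and 1 lower in DMSO (median 0.90). HBG1, a fetal gamma globin, was at 1949, 1986 and 2026 CPM in the insR drug libraries and 132, 127 and 146 in the WT drug libraries (log2 3.88, SE 0.09, edgeR adjusted p = 7.84e-20). The near-identical HBG2 was at 1364, 1630 and 1800 CPM against 73.2, 65.5 and 55.6. In DMSO, HBG1 was at 1119 ± 124 CPM in the WT libraries and 2536 ± 152 in insR cells (SD, n = 3), so that the genotypes differed already by 1.18. HBB, the adult beta globin, was at 4.35, 4.56 and 5.42 CPM in insR cells and 3 reads over the WT drug libraries. Summed over the list, the WT drug libraries lay at 229 to 246 CPM and the insR drug libraries at 3590 to 4129.

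Of 19 genes of heme synthesis and iron, 15 were higher and 2 lower under drug (median 0.91, against 9 higher and 3 lower and a median of 0.38 in DMSO). ALAS2, the rate-limiting enzyme of heme synthesis in red cells, was at 65.6, 59.1 and 57.5 CPM in the insR libraries and 5.48, 5.95 and 9.57 in WT cells (log2 3.04). TFRC, the transferrin receptor, was at 1015, 903 and 890 CPM against 343, 377 and 411 under drug (log2 1.31), but was lower in insR cells in DMSO (log2 -0.37, edgeR adjusted p = 0.0057). SLC25A37, which brings iron into mitochondria, and UROD, a heme pathway enzyme, were higher by 1.62 and 1.04. Of 28 tested genes of the red cell membrane and enzymes, 20 were higher and 3 lower (median 1.13, and 0.34 in DMSO). CD36 was at 209, 194 and 196 CPM in the insR libraries and 4.73, 7.68 and 7.13 in WT cells under drug (log2 4.91), with a difference of 0.45 in DMSO.

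The promoters of these red cell genes were searched for the GATA letters AGATAA on both strands in the 250 bases before the start, with sequences from RefSeq on GRCh38.p14. Of the 35 red cell genes with a promoter in the table, 10 (28.6%) held a match, beside 9.37% of all 27305 promoters and 4.7% of the 9614 promoters of genes tested. Lists that were not mostly higher in insR cells held matches at like shares, 2 of 7 promoters (28.6%) of monocyte and macrophage genes, 3 of 9 (33.3%) of mast cell, basophil and eosinophil genes and 2 of 8 (25%) of phagocyte oxidase and lectin receptor genes. A match is a description of letters and not a bound site. The part of the window around the match nearest to the start is shown for EPB42, ALAS2 and HBD, whose values are given here, 5′ to 3′ on the strand of the gene with the match in capitals.
EPB42, chr15:43221054-43221173, minus strand: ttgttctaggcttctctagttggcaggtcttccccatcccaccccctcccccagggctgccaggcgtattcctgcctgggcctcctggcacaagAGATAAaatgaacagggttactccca
ALAS2, chrX:55031079-55031198, minus strand: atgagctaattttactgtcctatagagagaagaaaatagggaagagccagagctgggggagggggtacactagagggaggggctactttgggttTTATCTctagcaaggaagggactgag
HBD, chr11:5234536-5234655, minus strand: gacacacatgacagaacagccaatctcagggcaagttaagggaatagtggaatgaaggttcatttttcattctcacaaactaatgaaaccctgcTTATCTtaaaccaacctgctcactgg
The match shown for EPB42 begins 61 bases before the start, that of ALAS2 127 bases and that of HBD 78 bases. The searched window of EPB42 holds 2 matches, of which the other lies outside the part shown. HBD, the delta globin gene, was at 5.45 ± 0.681 CPM in the insR libraries and 2.17 ± 0.416 in WT cells under drug (SD, n = 3; log2 1.33, edgeR adjusted p = 0.000524) and was not called in DMSO.

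Myeloid genes ran the other way where they could be measured, but most defining markers were near 0. Of 31 monocyte and macrophage markers, 10 could be tested, and 7 were lower and 1 higher in insR cells under drug (median -1.06, and 0.16 in DMSO). CD163, FCGR3A, FCN1, MRC1 and S100A8 had 0 reads in all 6 drug libraries, and CD14 had 28 reads over them. ITGAM, the alpha chain of the complement receptor CD11b, was at 66.6, 67.8 and 66.5 CPM in the WT libraries and 31.3, 25.5 and 32.2 in insR cells (log2 -1.17). MS4A6A had log2 fold changes of -3.59 under drug and -4.11 in DMSO. The summed level of the tested markers was 363 to 435 CPM in the WT libraries and 164 to 173 in insR drug libraries.

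Of 10 tested genes of the phagocyte oxidase and lectin receptors, 6 were lower and 1 higher (median -0.82). The inhibitory Fc receptor FCGR2B was at 17.1 ± 1.90 CPM in the WT libraries and 0.244 ± 0.148 in insR cells (SD, n = 3), and NCF4, an oxidase subunit, was lower by 1.23. Only 4 of 20 neutrophil granule genes could be tested, 2 higher and 2 lower, and AZU1, DEFA4, BPI and CEACAM8 had 0 reads in the drug libraries. The call of LCN2 among them (log2 0.69) was lost without WT GSK-LSD1 replicate 2 (edgeR adjusted p = 0.0769) or insR GSK-LSD1 replicate 3 (0.102).

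Megakaryocyte genes did not move as a block, with 7 higher and 5 lower of 17 tested (median 0.03). RAB27B, a GTPase of platelet granule release, was at 80.0, 91.0 and 79.5 CPM in the WT libraries and 3.54, 3.32 and 3.41 in insR cells under drug (log2 -4.60), and ITGA2B, the integrin CD41, at 1295, 1075 and 1174 against 734, 660 and 677 (log2 -0.77). TUBB1, the platelet beta tubulin, and GP6, the platelet collagen receptor, were higher in insR cells by 3.32 and 2.35, at 11.3 CPM or less in every insR drug library. PF4, PPBP and GP1BB had 0 reads in the drug libraries. The list of mast cells, basophils and eosinophils had 4 higher and 5 lower of 11 tested. IL5RA, the eosinophil receptor of interleukin 5, was at 42.2, 37.3 and 38.6 CPM in the WT libraries and 2.42, 3.11 and 1.08 in insR cells (log2 -4.19), with no call in DMSO, while KIT was higher by 0.84.

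Stem and progenitor genes were lower in 8 of 11 tested and higher in 1 (median -1.18, and -0.15 in DMSO). CD34 was at 671, 713 and 704 CPM in the WT libraries and 455, 450 and 435 in insR cells under drug (log2 -0.64), and was higher in insR cells in DMSO by 0.32. MECOM, a zinc finger factor of stem cells, was lower by 1.31 under drug and 0.41 in DMSO, while the adhesion receptor ADGRG1 was higher by 1.25. PROM1, HLF, SPINK2 and MLLT3 had 0 reads in the drug libraries. Of 7 tested lymphoid genes 4 were lower (median -0.46), among them CD7 by 1.47 and PAX5 by 2.03, against 3 lower in DMSO (median -0.55). The call of CD79B among them (log2 -0.46, edgeR adjusted p = 0.0467) was lost under several alternatives. These include DESeq2 (adjusted p = 0.0757) and edgeR without WT GSK-LSD1 replicate 3 (adjusted p = 0.211). MS4A1, BLNK and IL7R had 0 reads in the drug libraries.

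MHC class II had fewer calls under drug than in DMSO, with 4 higher and 3 lower of 14 tested (median 0.14), against 9 higher and 1 lower in DMSO (median 1.35). The shares under drug, 28.6% and 21.4%, are near the 27.0% and 27.5% of all genes. HLA-DPA1 was at 28.8, 24.5 and 26.6 CPM in the insR libraries and 12.3, 12.5 and 11.5 in WT cells under drug (log2 1.15, against 1.44 in DMSO). HLA-DOA, which damps peptide loading, was at 5.48, 4.42 and 4.99 CPM in WT cells and had 1 read over the insR drug libraries, a ratio of 86.9 (95% interval 15.3 to 3467). Without that library, insR GSK-LSD1 replicate 3, its fitted log2 fold change was -8.02 in place of -6.03. Class I genes were mixed, 7 higher and 5 lower of 17, with HLA-E turning from higher in DMSO (0.57) to lower under drug (-0.77). Reads of HLA genes may be shared among near-identical copies, which makes the value of any 1 of them uncertain.

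Interferon response genes were called in 12 of 28, 5 higher and 7 lower (median -0.19). These 17.9% and 25% are at or below the shares of all genes, so the count is no result about the list. GBP2, a guanylate-binding protein, was lower by 1.83 under drug. Of 14 tested genes of the NF-kB and inflammatory list, 7 were lower and 0 higher (median -0.28). The cytokine genes TNF and IL6 had 0 reads in the drug libraries. IL1B was not called, at 116, 117 and 113 CPM in the insR libraries and 68.1, 111 and 92.8 in WT cells. NFKBIA, the inhibitor and target of NF-kB, was at 79.4, 71.4 and 72.8 CPM in the insR libraries and 223, 225 and 221 in WT cells (log2 -1.58, against -0.67 in DMSO), and BIRC3 was lower by 2.18 and REL by 1.18. Of the cytokine receptors and JAK-STAT genes, 8 were higher and 5 lower of 22 (36.4% and 22.7%, near the shares of all genes). JAK2 was at 85.6, 94.8 and 99.7 CPM in the insR libraries and 53.9, 62.6 and 60.3 in WT cells (log2 0.66), and IL6R was lower by 2.11.

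Genes of growth and division were higher in insR cells under drug. Of 30 tested ribosome biogenesis genes 28 were higher (median 0.60), against 2 higher and 4 lower in DMSO (median 0.01). DDX21, a nucleolar helicase, was at 1137, 1094 and 1120 CPM in the insR libraries and 611, 593 and 591 in WT cells under drug (log2 0.90, SE 0.07, edgeR adjusted p = 7.35e-11), with mean levels of 1234 CPM in insR and 1146 CPM in WT cells in DMSO. NOP16 and NIP7 were higher by 1.55 and 1.31. MYC, which drives ribosome genes, was at 87.8, 125 and 87.2 CPM in the insR libraries and 21.6, 46.3 and 31.7 in WT cells under drug (log2 1.59, adjusted p = 0.00277).

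DNA replication genes were higher in 25 of 33 tested and lower in 1 (median 0.53, and 0.14 in DMSO), and mitosis genes higher in 23 of 32 and lower in 1 (median 0.50, and 0.13 in DMSO). MCM2, a subunit of the replicative helicase, was at 273, 313 and 297 CPM in the insR libraries and 98.1, 152 and 122 in WT cells (log2 1.25), and MCM4 was higher by 0.84. CDC20, an activator of the anaphase-promoting complex, was at 226, 223 and 224 CPM against 95.1, 78.5 and 87.8 (log2 1.36). CDK1 and CCNA2 were higher by 0.59 and 0.80. These are differences of under 2-fold for most members: only 3 of the replication genes and 2 of the mitosis genes passed 2-fold.

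Among inhibitors of the cycle and D cyclins, 8 were higher and 5 lower of 19. CDKN1A, which encodes p21, was higher in insR cells, at 23.2, 22.0 and 22.9 CPM against 3.40, 3.65 and 5.19 (log2 2.41, and 2.15 in DMSO), as was CDKN2D, by 1.40. CDKN1C was lower, at 0.161, 1.45 and 0.619 CPM against 17.4, 17.5 and 16.5 (log2 -4.59, and -5.37 without insR GSK-LSD1 replicate 2; -3.89 in DMSO).

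Lipid and chaperone genes were mostly higher in insR than in WT cells under drug. Of 22 cholesterol synthesis genes, 14 were higher and 3 lower under drug (median 0.47), whereas in DMSO 1 was higher and 13 were lower (median -0.39). SQLE, squalene epoxidase, was at 74.6, 77.4 and 85.9 CPM in the insR libraries and 48.0, 43.0 and 42.7 in WT cells under drug (log2 0.84), but at 75.2 ± 6.11 and 97.0 ± 6.5 in DMSO (SD, n = 3; log2 -0.36). DHCR7, the last enzyme of the pathway, turned in the same way, at 0.96 and -0.41. Of 16 fatty acid synthesis genes 11 were higher (median 0.84, and 0.15 in DMSO), with ELOVL6 at 178, 185 and 193 CPM against 58.1, 64.9 and 53.7 (log2 1.66) and FASN higher by 0.99.

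Of 24 heat shock and chaperone genes 18 were higher and 4 lower (median 0.55, and 0.00 in DMSO). The mitochondrial chaperonins HSPD1 and HSPE1 were higher by 1.09 and 1.19, HSPD1 at 1406, 1237 and 1308 CPM in the insR libraries and 698, 544 and 621 in WT cells. Of 26 genes of ATF4 and integrated stress 11 were higher and 3 lower (median 0.15). WARS1, a tRNA synthetase, was at 143, 132 and 136 CPM in the insR libraries and 58.8, 51.8 and 56.7 in WT cells (log2 1.30), and ATF3, a stress factor, was lower, at 1.13, 1.66 and 1.24 CPM against 13.8, 17.3 and 14.6.

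**Figure D3:**
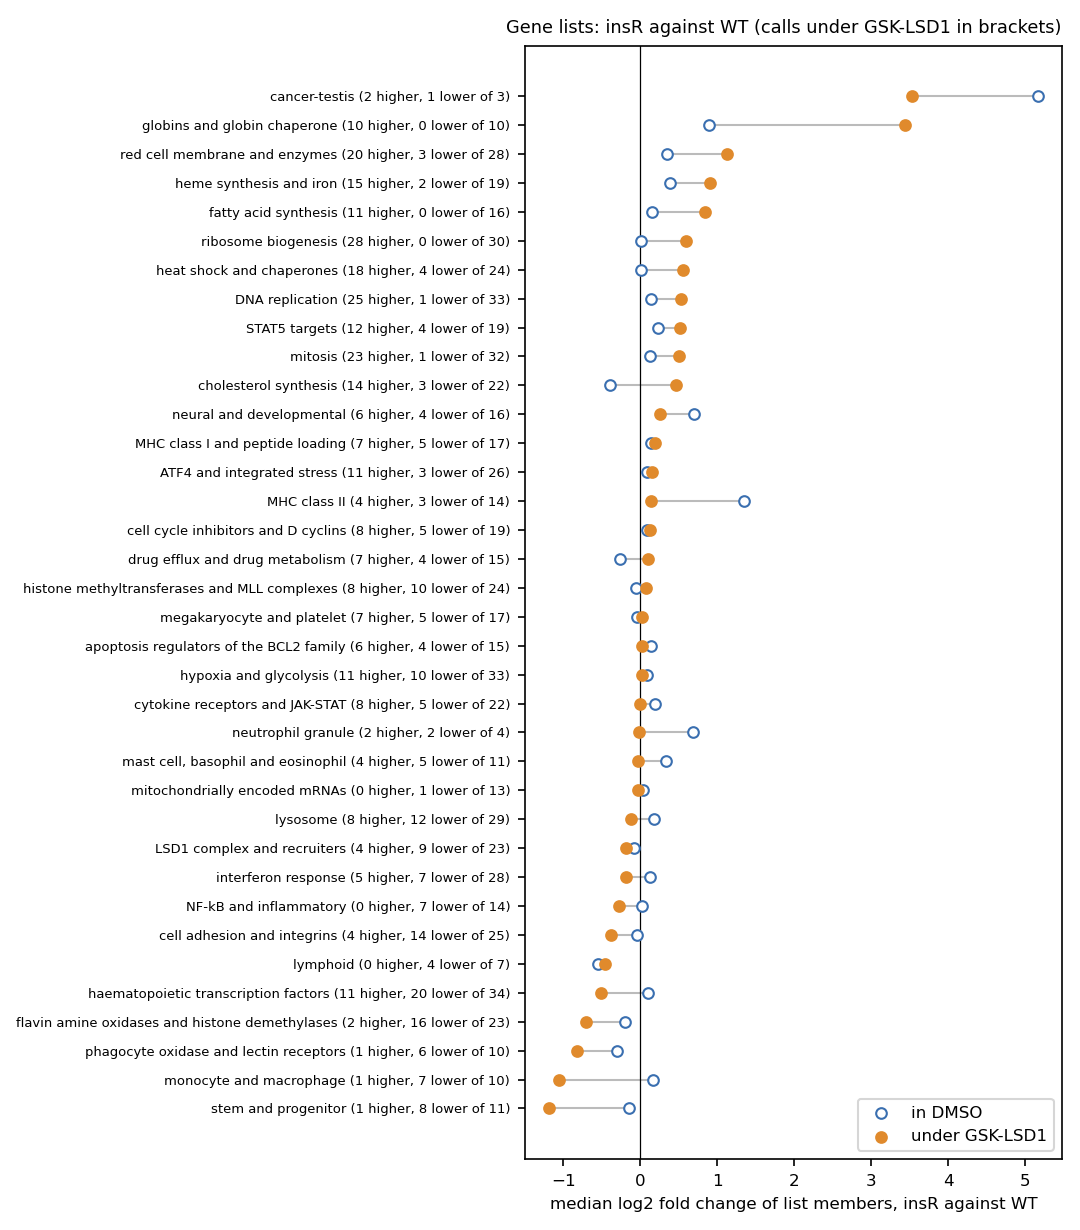
Median log2 fold change of insR against WT cells over the tested members of 36 gene lists, under GSK-LSD1 (filled) and in DMSO (open), with the number of members called higher and lower under GSK-LSD1 in brackets. Globins (3.44), the red cell membrane list (1.13) and ribosome biogenesis (0.60) lie to the right under GSK-LSD1, stem and progenitor (-1.18) and monocyte genes (-1.06) to the left, and cholesterol synthesis lies on opposite sides of 0 in the 2 conditions.

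STAT5 targets were higher in 12 and lower in 4 of 19 (median 0.51), against 7 higher and 3 lower in DMSO (median 0.23). The interaction was called in 3 of them. PIM2, a survival kinase, was at 384, 363 and 403 CPM in the insR libraries and 187, 187 and 186 in WT cells under drug (log2 1.04), and SOCS3, the feedback inhibitor of JAK signals, was at 35.5, 57.9 and 42.9 against 4.54, 10.2 and 7.23 (log2 2.63). In the BCL2 family 6 were higher and 4 lower of 15, with the survival gene MCL1 higher by 0.51, the killer gene PMAIP1 higher by 1.02 and BBC3 lower by 0.89. Hypoxia and glycolysis genes were called at 33.3% higher and 30.3% lower (11 and 10 of 33), near the shares of all genes. EPAS1 was at 99.5, 117 and 112 CPM in the WT libraries and 0.161, 0.830 and 0.465 in insR cells (log2 -7.84), while VEGFA and SLC2A1 of the same list were higher in insR cells by 2.87 and 2.84.

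Of 15 drug efflux and metabolism genes 7 were higher and 4 lower (46.7% and 26.7%, beside 27.0% and 27.5% of all genes). ABCB1, the efflux pump P-glycoprotein, was at 49.3, 45.4 and 53.7 CPM in the insR libraries and 22.5, 25.9 and 21.3 in WT cells under drug (log2 1.10), and was higher by 0.68 in DMSO. GSTO1, a glutathione transferase, was higher by 1.32, while the pump ABCC4 and the monooxygenase CYP1B1 were lower by 0.87 and 1.65. Of the other histone demethylases and flavin oxidases, counted with KDM1A, 16 of 23 were lower and 2 higher (median -0.71, and -0.20 in DMSO). KDM5B, which like LSD1 acts on lysine 4 of histone H3, was at 206, 183 and 201 CPM in the insR libraries and 420, 361 and 376 in WT cells (log2 -0.97). Among methyltransferases 8 were higher and 10 lower of 24, with KMT2A, which writes that mark, at 316, 273 and 308 CPM against 704, 622 and 607 (log2 -1.11) and EZH1 lower by 1.58.

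Lysosome genes had 8 higher and 12 lower of 29, with MITF at 20.3, 20.7 and 15.6 CPM in the insR libraries and 2.46, 1.73 and 3.36 in WT cells (log2 2.81) and the lipid carrier NPC2 lower by 1.10. Adhesion genes and integrins were lower in 14 and higher in 4 of 25 (median -0.38). CD44 was at 155, 172 and 160 CPM in the insR libraries and 380, 399 and 369 in WT cells under drug (log2 -1.24), but was higher in insR cells in DMSO by 0.83. ITGA9 was lower by 2.94 under drug and not called in DMSO. Of the 13 mitochondrially encoded mRNAs 1 was called lower (MT-ATP6, log2 -0.58) and none higher, with log2 fold changes of -0.58 to 0.59 and a median of -0.03. MT-ND6, at 0.51, was not called by edgeR (adjusted p = 0.0890) but was by DESeq2 (0.0217), and by edgeR with no filter beyond 1 count (0.000189) and without insR GSK-LSD1 replicate 1 (0.0246).

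Some genes not typical of blood cells differed between the genotypes in both conditions. Of 16 tested neural and developmental genes 6 were higher and 4 lower under drug. EMX2, a homeobox factor of the forebrain, was at 22.9, 25.1 and 23.1 CPM in the insR libraries and 0.945, 1.34 and 1.83 in WT cells under drug (log2 4.0, and 4.89 in DMSO), while CDH2, N-cadherin, was lower, at 0.483, 0.207 and 0.619 against 14.4, 16.7 and 18.5. Only 3 of 23 cancer-testis genes could be tested. MAGEC1 was at 57.0, 67.2 and 64.1 CPM in the insR libraries and 1.89, 4.22 and 1.63 in WT cells (log2 4.70, and 5.65 in DMSO), MAGEC2 was higher by 3.53, and MAGEA1 was lower by 2.79.

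By chromosome, genes of chromosome 13 stood apart. Of 227 tested there, 144 (63.4%) were lower and 21 (9.25%) higher in insR cells under drug, beside 27.5% and 27.0% of all genes. The median log2 fold change on chromosome 13 was -0.68 under drug and -0.70 in DMSO, and in DMSO 60.8% of its genes were lower. ZMYM2, RFXAP and ABCC4, named in the lists, lie on it, and RFXAP, a factor of MHC class II genes, was lower by 0.99 under drug and 1.5 in DMSO. Chromosome 17 came next, with 40.1% of 750 genes lower and a median of -0.20, followed by chromosomes 6 (33.7%) and 11 (33.1%). On the other autosomes and X between 20.1% and 31.5% of genes were lower.

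**Figure D4:**
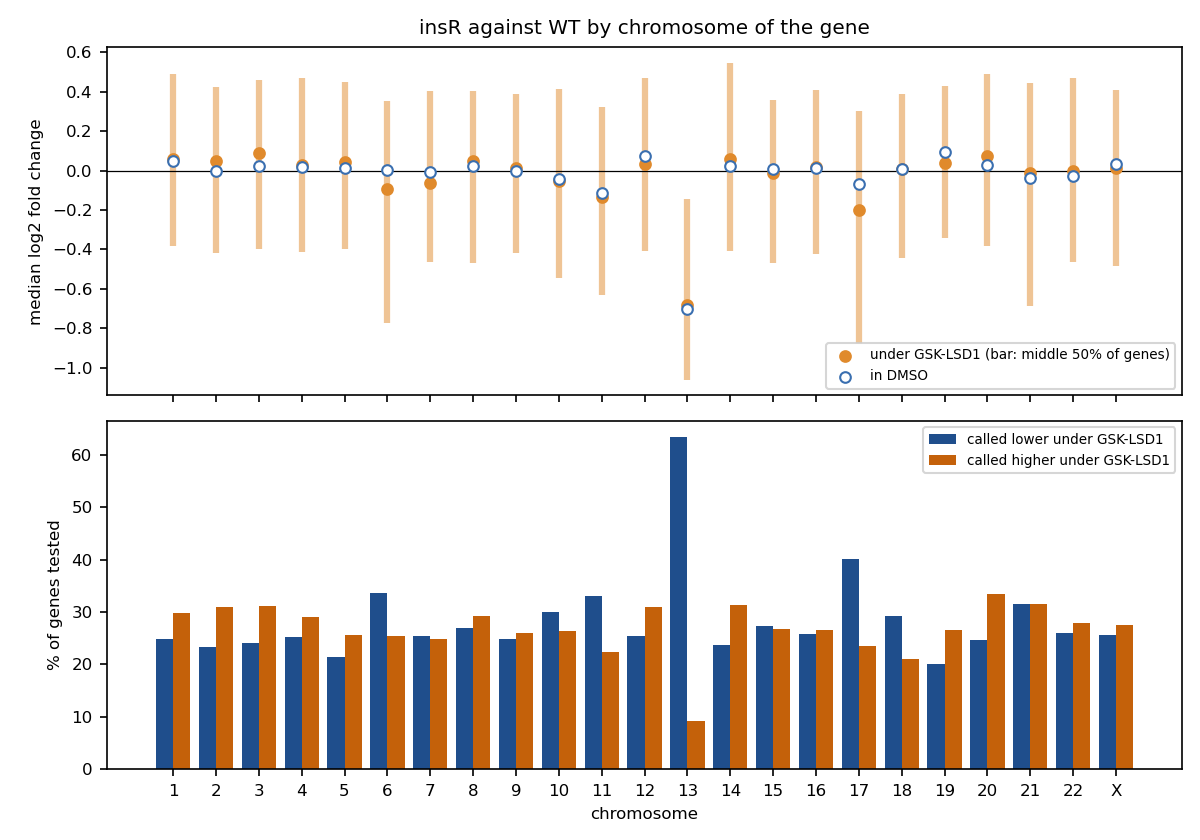
insR against WT cells by chromosome of the gene: the upper panel gives the median log2 fold change under GSK-LSD1 (filled, with the middle 50% of genes as a bar) and in DMSO (open), the lower panel the percentage of tested genes called lower and higher under GSK-LSD1. Chromosome 13 lies at -0.68 and -0.70, with 63.4% of its genes lower.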

How the data were processed

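Libraries were made with a QuantSeq 3' forward kit from polyadenylated RNA, per the labels' protocols, and their reads come from the ends of transcripts. The submitters' processing notes name bcl2fastq 2.2, STAR 2.6.0c, HTSeq 0.9.1, DESeq2 and the build hg19; the sources used here give neither the annotation release nor the strand setting, which leaves genes that overlap or lie antisense to another uncertain. The deposited tables hold raw counts per gene. A deposited normalized table (signal) equals those counts divided by a size factor: 100% of nonzero values came out whole to a tolerance of 0.01. Entries naming no gene were left out of library sizes and tests; reads outside genes are given in the report.

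Genes were tested in edgeR 4.0.16 (R 4.3.3) by its quasi-likelihood F test with robust dispersion, after TMM and filterByExpr; the fit took all 12 libraries in 4 groups, and genes were called at a Benjamini-Hochberg adjusted p below 0.05 over 12864 genes. Symbols matched for 52181 of 63677 identifiers by Ensembl ID, and biotypes and chromosomes (names only, from GENCODE 29 on GRCh38) for 52524. The fit was tested on simulated data. Counting intervals are exact 95% intervals; they and floors cover counting error only.

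KDM1A was named first, then the 12 largest differences per direction among called protein-coding genes with a mean in the higher group of 10 CPM or more and no overlap between libraries, the 6 per direction that were not called in DMSO and were called in the interaction, the 4 per direction called in opposite directions, and the 4 members of lowest p in each list (fewer where fewer were tested), with further members of the LSD1 complex, transcription factor and globin lists. Some genes named by this rule, and 1 list, are not reported here. The members and the 37 lists were chosen with earlier results of these data known. Alternatives were upper-quartile scaling, DESeq2 1.42.0 and its size factors, looser and stricter filters, limma 3.58.1 (voom, and trend on log2 of the normalized signal plus 1), stricter calls, only the groups compared, a replicate block, and each library left out in turn. Plots used matplotlib 3.10.9.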

Additional observations from a re-analysis of the deposited data

Results flagged for a closer look

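In 28 named genes the difference between insR and WT cells itself differed between GSK-LSD1 and DMSO by the interaction term of the edgeR fit. Values are the change of the log2 difference with drug. Genes not called in DMSO were named partly for a called interaction, and those called in opposite directions for their opposite signs. A called change in these genes was therefore set by how they were chosen and is no further result. The genes with the largest positive difference were chosen by the drug comparison, which shares libraries with the interaction. Of the genes with the largest positive difference, AQP1 changed by 6.85, AHSP by 2.97, EPB42 by 3.83, CR2 by 3.91, IL2RA by 2.93, PAPPA by 3.21, CA2 by 3.57 and ID4 by 2.68. Among the genes lower in insR cells under drug and not called in DMSO, the change was -13.31 for PI16, -7.63 for CLEC4A, -6.64 for JAML, -7.39 for MAPK13, -6.13 for BACH2 and -4.93 for TFPI2. These genes have few or no reads in several groups, so the fitted values depend on the prior count and are no bound. Among those higher under drug and not called in DMSO, it was 2.19 for RAB3IL1, 2.45 for RAB6B, 2.32 for FST, 2.08 for PRF1, 1.79 for MGAT3 and 1.95 for CHAC2. For genes called in opposite directions it was -3.93 for CAMSAP2, -4.04 for VCAN, -4.06 for MDFIC, -5.33 for PRR9, 2.75 for SLC6A19, 2.83 for HBA2, 1.85 for TACC2 and 2.09 for UBASH3B.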

How the results depend on the processing

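The count of genes differing between insR and WT cells under GSK-LSD1 was 6265 to 6654 with 1 library left out, that in DMSO 3178 to 3459, and that of the interaction 2691 to 3224. Genes called in both conditions in the same direction then numbered 2298 to 2659, and those in opposite directions 165 to 211. Of the 693 listed genes tested, 464 to 480 were then called under drug, beside 493 with no library left out. Over all genes tested 54.5% were called under drug with no library left out. DESeq2 called 6703, 3611 and 2988 genes in the 3 comparisons. At an adjusted p below 0.01 the interaction count was 1896 and that of opposite directions 98. Requiring 2-fold left 2554 genes under drug, 1373 in DMSO, 993 in the interaction, 963 in the same direction, 18 in opposite directions and 206 listed genes. Fewer genes are called under these rules by construction. Upper-quartile scaling moved the median log2 fold change of all genes under drug from -0.01 to -0.06, with 45.0% of calls higher. No named difference that was called reversed its direction. The counts of list members higher stayed within 1.5 times in 575 of 629 recomputed values, those of members lower in 587, and list medians stayed within the spread of libraries in 568.

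Same-numbered libraries under drug had correlations of their deviations from the group mean of 0.145, 0.313 and -0.243, so the numbers were not taken to pair samples. With a replicate block the counts were 6994 under drug, 3897 in DMSO and 3198 in the interaction. Genes with 3 or fewer reads in a group, such as CLEC4A and MAPK13, are limited by depth.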
